A study of Mus musculus with 48 samples.

Results

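Genes of the MAP kinase pathway were followed across mouse hippocampus and amygdala: the phosphatases Dusp1 and Dusp6 and the kinases Mapk3, Map2k1 and Braf. Members were chosen with earlier results of these data known, and all probe sets naming a member by gene symbol in the platform annotation were taken. Of the 5 genes, 4 were named by a probe set, out of 8251 genes named in all, and they have 7 of the 12422 probe sets that are not array controls. Mapk3, which encodes the kinase ERK1, is named by no probe set in the annotation used and has no value here. Dusp6, Map2k1 and Braf have 2 probe sets each and Dusp1 has 1.

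The series holds 48 one-colour Affymetrix arrays. The hippocampus arrays comprise 8 labelled FC, 8 labelled CS and 10 labelled NH, and the amygdala arrays 6 labelled FC, 6 labelled CS and 10 labelled NH. What the arm codes mean is not spelled out. The series title speaks of associative and nonassociative learning, and on that basis FC was taken to mean fear conditioning, CS the conditioned stimulus alone and NH naive home cage animals. Strain, sex, age and the interval between training and dissection are not stated in the labels. Nothing states that replicates came from separate animals, so the p-values below measure the spread between these arrays, which may be technical. The amygdala array names can be read as a batch digit followed by a pair of numbers, some of which also name a hippocampus array of the same arm. Each amygdala array may thus come from pooled animals, which the labels do not state. The tissue labels were checked with neuronal genes of each region. By percentile within the array, Neurod6 and Prox1 were higher in all hippocampus arrays and Tac2 and Cdh13 in all amygdala arrays, with no overlap.

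The ERK cascade carries signals from receptors at the cell surface to the nucleus. Active RAS recruits RAF kinases such as the product of Braf, RAF phosphorylates the kinase MEK (MEK1 is the product of Map2k1), and MEK phosphorylates ERK. In neurons the cascade is activated by calcium entry and neurotrophins, and ERK activity in hippocampus and amygdala is needed for lasting fear memory. Dual-specificity phosphatases end the signal by removing phosphate from both the threonine and the tyrosine of the kinase's activation loop. DUSP1 is a nuclear enzyme that acts on p38, JNK and ERK and is made as an immediate early gene product. DUSP6 is a cytoplasmic enzyme selective for ERK, and its transcription is itself raised by ERK signalling. The arrays measured transcripts, and the phosphorylation of these kinases was not measured.

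The promoters of Dusp1, Dusp6 and Braf are printed because the members differ in cyclic AMP response elements (CRE, the binding motif of CREB), through which activity-dependent transcription is known to act. The sequences are those of RefSeq on GRCm38.p6, 250 bases ending at the base before the annotated start, 5′ to 3′ on the gene's strand, and 4 of the 5 members had an entry. Capitals mark the full motif TGACGTCA and the core TGACG of it on either strand, and core matches may overlap a full motif.
Dusp1, chr17:26508473-26508722, minus strand: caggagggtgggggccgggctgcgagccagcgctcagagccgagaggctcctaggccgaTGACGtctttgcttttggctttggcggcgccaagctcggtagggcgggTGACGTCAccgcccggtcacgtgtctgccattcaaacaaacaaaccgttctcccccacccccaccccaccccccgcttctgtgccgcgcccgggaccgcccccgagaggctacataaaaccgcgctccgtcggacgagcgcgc
Dusp6, chr10:99262981-99263230, plus strand: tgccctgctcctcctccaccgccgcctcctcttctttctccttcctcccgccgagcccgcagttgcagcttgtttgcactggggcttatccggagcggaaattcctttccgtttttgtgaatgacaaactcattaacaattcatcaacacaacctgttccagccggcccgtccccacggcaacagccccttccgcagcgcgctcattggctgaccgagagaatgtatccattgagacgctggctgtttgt
Braf, chr6:39725464-39725713, minus strand: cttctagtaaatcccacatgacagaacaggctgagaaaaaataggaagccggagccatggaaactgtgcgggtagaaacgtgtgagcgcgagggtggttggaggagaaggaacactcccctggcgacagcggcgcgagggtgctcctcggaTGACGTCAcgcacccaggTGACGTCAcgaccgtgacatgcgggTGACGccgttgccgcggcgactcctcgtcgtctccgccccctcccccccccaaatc
The Dusp1 promoter holds 1 full CRE, 143 to 136 bases before the start, and a further core match 191 to 187 bases before it. The Dusp6 window holds neither. The Braf promoter holds 2 full motifs, 99 to 92 and 81 to 74 bases before the start, and a further core match 56 to 52 bases before it. The Map2k1 promoter holds 0 full motifs and 2 core matches. Among 32851 mouse promoters in the same table, 1.55% hold the full CRE and 17.8% at least 1 core match in windows of this length. The AP-1 motif TGANTCA, in 6.75% of the promoters, and the CArG box, in 1.47%, were matched in none of the 4 member windows. A match is a description of the letters and not evidence that a factor binds there.

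Levels are log2 values of the deposited intensity, so that a difference of 1 stands for a doubling. Within a tissue, the dimmest 40% of probe sets by mean level did not enter the test, and 3 of the 7 member probe sets passed in each: 104598_at for Dusp1, 93285_at for Dusp6 and 92585_at for Map2k1. The limit was a mean log2 intensity of 5.79 in hippocampus and 5.21 in amygdala. It was set on the mean of all arrays of the tissue, whichever arm they belonged to. The other 4 are described without a test. The mean level of Dusp1 lay at percentile 78.1 of the array in hippocampus and 76.8 in amygdala. Map2k1 was the brightest member, at percentiles 92.9 and 91.7 in the same order, while both Braf probe sets lay between percentiles 13.2 and 31.9.

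Dusp1 was higher in FC and in CS than in NH in both tissues, and of these 4 differences the one in FC amygdala passed the test across all probe sets. In amygdala its log2 intensity was lowest at 7.19, with a median of 7.38 and a highest value of 7.50, in the 6 FC arrays, and ran from 7.16 through a median of 7.20 to 7.46 in the 6 CS arrays, against 6.55, 6.91 and 7.01 in the 10 NH arrays. No FC or CS array overlapped the NH range. How many of all probe sets separate in this way over all arrays was not counted. Of the NH arrays, 6 came from a processing batch that held no other arm. The means were 7.37 ± 0.117 in FC, 7.24 ± 0.109 in CS and 6.87 ± 0.147 in NH (SD, n = 6, 6 and 10).

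The labels give a processing batch for each array, and differences were taken within batches by entering the batch as a block. With this block only 4 NH arrays per tissue, those in batches that also held FC or CS arrays, inform a difference from NH. In amygdala Dusp1 rose in FC by 0.54 ± 0.0818 (SE) over NH, a 1.45-fold difference with a 95% confidence interval from 0.37 to 0.71 and an adjusted p of 0.00151 (limma, Benjamini-Hochberg over 7453 probe sets). It was 1 of 7 probe sets called in this comparison, which is 0.0939% of those tested. The other 6 all belonged to the immediate early and activity genes Fos, Junb, Nr4a1, Egr1, Egr2 and Gadd45g. By batch, the Dusp1 difference was 0.53 in batch 2 and 0.53 in batch 3, where it rests on 2 FC arrays and 1 NH array. Fitted on either batch alone it did not pass, with adjusted p of 0.150 (limma) in batch 2 and 0.0834 in batch 3. In bulk tissue, a different number of cells of a type and a different amount of RNA per cell cannot be told apart.

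In CS amygdala the Dusp1 difference from NH was 0.41 ± 0.0833, with an interval from 0.24 to 0.58. It had rank 3 of 7453 by p and missed the threshold, with an adjusted p of 0.120 from limma. Only 0.0134% of probe sets were called in that comparison. Set against the NH arrays of the same batch, all 6 FC and all 6 CS arrays were higher. Such a separation upwards was seen in 2.03% of all tested probe sets for FC and in 2.31% for CS. The call depends on the fit: with no batch term the CS difference was 0.37 (adjusted p = 0.0108), with batch as a random block 0.39 (adjusted p = 0.0235) and with array weights 0.35 (adjusted p = 0.0392), and all 3 passed, where 0.228%, 0.0537% and 0.0671% of all tested probe sets were called (limma). Leaving out NH replicate 16970 brought the CS difference past the threshold, with an adjusted p of 0.0113, and leaving out CS replicate 23139 gave a difference of 0.35 and an adjusted p of 0.598.

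FC and CS overlapped for Dusp1 in amygdala. FC exceeded CS by 0.13 ± 0.0738, with an interval from -0.02 to 0.28 and an adjusted p of 0.9995 (limma). Batch 2 gave 0.06 and batch 3 gave 0.22. The share of probe sets called in FC minus CS was 0% in amygdala and 0% in hippocampus, with 92 and 57 probe sets at an unadjusted p under 0.05 in limma.

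In hippocampus the Dusp1 log2 intensity ran from 7.56 through a median of 7.89 to 8.02 in the 8 FC arrays and from 7.51 through 7.80 to 8.11 in the 8 CS arrays, against 7.14, 7.36 and 7.79 in the 10 NH arrays. The arms overlapped here: 7 of 8 FC arrays and 4 of 8 CS arrays lay above all NH arrays of any batch. How many of all probe sets reach such counts over all arrays was not counted. Set against the NH arrays of the same batch, all 4 FC and all 4 CS arrays of the shared batches were higher, a separation seen in 2.29% of all tested probe sets for FC and 1.60% for CS. The difference from NH was 0.38 ± 0.0819 for FC, with an interval from 0.21 to 0.55 and an adjusted p of 0.215, and 0.39 ± 0.0829 for CS, with an interval from 0.22 to 0.56 and an adjusted p of 0.224 (limma). Neither passed, although Dusp1 had rank 3 for FC and rank 2 for CS of 7453 by p. In each of these comparisons 0.0134% of probe sets were called. Whether either difference passes depends on the fit. The FC difference passed with no batch term (0.45, adjusted p = 0.0165), with batch as a random block (0.41, adjusted p = 0.0306) and with array weights (0.38, adjusted p = 0.0161), where 0.0939%, 0.0537% and 0.0403% of all tested probe sets were called (limma). The CS difference passed with no batch term (0.41, adjusted p = 0.0379), where 0.0939% were called. FC minus CS was -0.01 ± 0.0625, with an interval from -0.14 to 0.12.

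**Figure D1:**
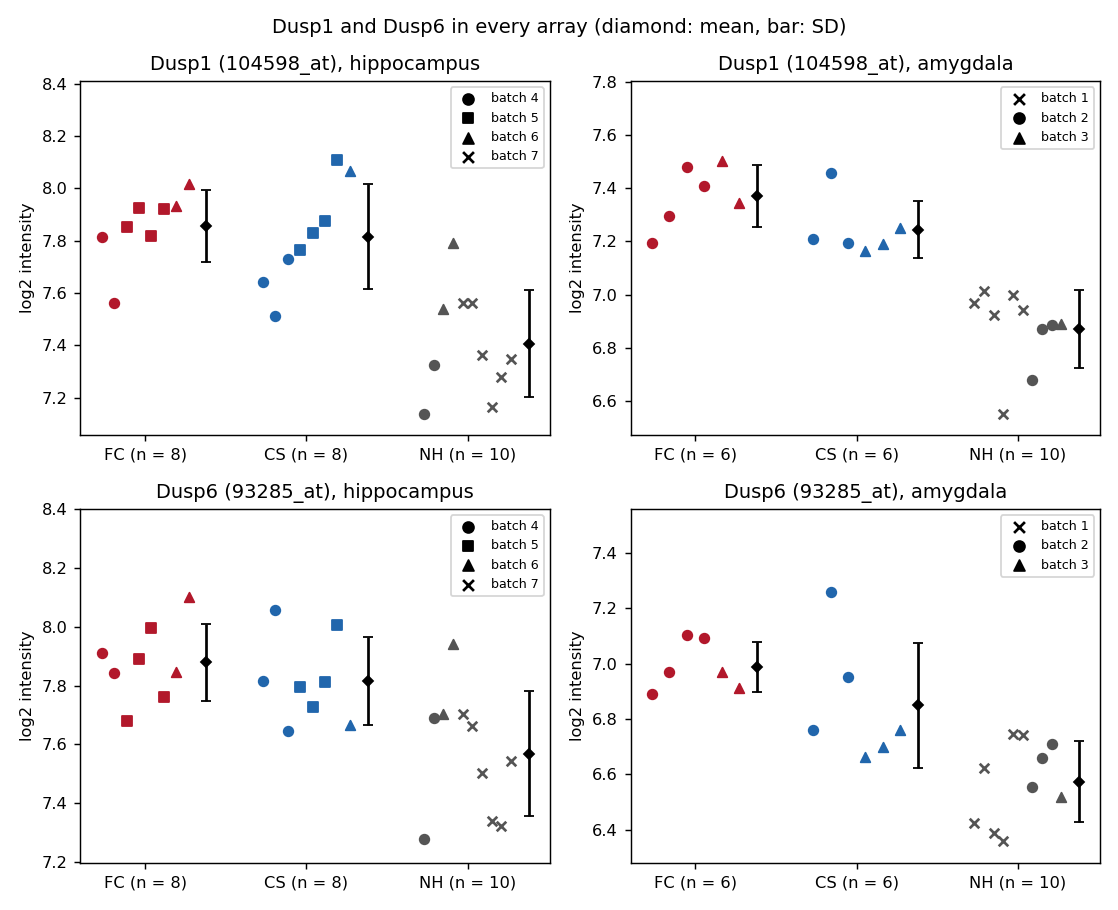
Log2 intensity of the Dusp1 and Dusp6 probe sets that passed the brightness filter, by tissue and arm, with 1 point per array, colour for the arm and shape for the processing batch, and a diamond with a bar for the mean ± SD of each arm. In amygdala every FC and CS array lies above all NH arrays for Dusp1, and every FC array does for Dusp6, while the arms overlap in hippocampus. How many of all probe sets separate in this way over all arrays was not counted.

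Dusp6, the ERK-selective phosphatase, leaned the same way as Dusp1 with smaller differences, and none passed the test. In amygdala probe set 93285_at had log2 intensities of 6.89, 6.97 and 7.10 (lowest, median and highest) in FC and 6.66, 6.76 and 7.26 in CS, against 6.36, 6.59 and 6.75 in NH. All 6 FC arrays and 4 of 6 CS arrays lay above all 10 NH arrays, and the share of all probe sets that do so was not counted. Set against the NH arrays of the same batch, all 6 FC and all 6 CS arrays were higher. That within-batch separation was seen in 2.03% of all tested probe sets for FC and in 2.31% for CS. Means were 6.99 ± 0.0906 in FC, 6.85 ± 0.225 in CS and 6.57 ± 0.147 in NH (SD, n = 6, 6 and 10). The spread of the CS arm is the widest of these, and 1 CS array, replicate 23139, held its highest value.

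The difference of Dusp6 from NH in amygdala was 0.39 ± 0.0880 for FC, a 1.31-fold difference with an interval from 0.21 to 0.57 and an adjusted p of 0.120, at rank 10 of 7453 by p (limma). For CS it was 0.28 ± 0.0896, with an interval from 0.10 to 0.47 and an adjusted p of 0.942. In batch 2 the FC difference was 0.37 and the CS difference 0.35, and in batch 3 they were 0.42 and 0.19, against 1 NH array. The FC call depends on the fit. It passed with batch as a random block (adjusted p = 0.0313), without a batch term (adjusted p = 0.00770), with array weights (adjusted p = 5.01e-05) and without CS replicate 23139 (adjusted p = 0.0226). Of all tested probe sets, 0.134% were called with the random block, 2.83% without a batch term and 12.2% with array weights. FC exceeded CS by 0.11 ± 0.0794, with an interval from -0.05 to 0.28.

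The dim Dusp6 probe set, 161536_r_at, gave a difference of the opposite sign in amygdala, -0.17 for FC with an interval from -0.41 to 0.07 and -0.18 for CS with an interval from -0.42 to 0.07. It lay at percentile 17.5 of the array, below the brightness limit. Averaging both Dusp6 probe sets gave 0.11 for FC over NH in amygdala (adjusted p = 0.912). The Dusp6 values above are thus those of 1 of its 2 probe sets.

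In hippocampus Dusp6 intensities were 7.68, 7.87 and 8.10 in FC and 7.65, 7.80 and 8.06 in CS, against 7.28, 7.60 and 7.94 in NH (lowest, median and highest). Only 2 of 8 FC arrays and 2 of 8 CS arrays lay above all NH arrays, and how many of all probe sets reach such counts was not counted. The difference from NH was 0.25 ± 0.105 for FC, with an interval from 0.03 to 0.46, and 0.20 ± 0.106 for CS, with an interval from -0.02 to 0.42, and both had an adjusted p of 0.9999 (limma). Without NH replicate 100 the values were 0.12 and 0.06 in the same order. Batches disagreed for CS, with 0.36 in batch 4 and -0.16 in batch 6, while FC was at 0.39 and 0.15. FC minus CS was 0.05 ± 0.0802, with an interval from -0.12 to 0.21.

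Map2k1, the kinase that phosphorylates ERK, was bright and showed no detectable difference between arms. In amygdala 92585_at averaged 8.30 ± 0.105 in FC, 8.27 ± 0.228 in CS and 8.38 ± 0.0901 in NH (SD, n = 6, 6 and 10). In hippocampus it averaged 8.93 ± 0.139 in FC, 8.93 ± 0.126 in CS and 8.95 ± 0.110 in NH (n = 8, 8 and 10). The arms overlapped in both tissues. Within batches FC minus NH was -0.02 ± 0.0700 in amygdala, with an interval from -0.17 to 0.12, and 0.04 ± 0.0659 in hippocampus, with an interval from -0.09 to 0.18. CS minus NH was -0.02 ± 0.0713 in amygdala, with an interval from -0.17 to 0.13, and 0.07 ± 0.0667 in hippocampus, with an interval from -0.07 to 0.21. These intervals lie below the Dusp1 differences of 0.54 and 0.41 in amygdala and of 0.38 and 0.39 in hippocampus. The dim set 162082_r_at differed from NH by between 0.04 and 0.09 in the 4 comparisons.

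Braf, the RAF kinase at the head of the kinase chain, was dim on both probe sets and was not tested. In amygdala 161718_at averaged 4.61 ± 0.327 in FC, 4.64 ± 0.0739 in CS and 4.74 ± 0.101 in NH (SD, n = 6, 6 and 10), and in hippocampus 5.42 ± 0.117 in FC, 5.33 ± 0.0771 in CS and 5.35 ± 0.160 in NH (n = 8, 8 and 10). The differences of 161718_at from NH stayed between -0.08 and 0.12, with FC in amygdala at -0.08 in an interval from -0.31 to 0.14. The second set, 93870_at, differed by between 0.04 and 0.08. At this brightness a change of Braf transcripts may not be visible, and the values give no test of it.

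**Figure D2:**
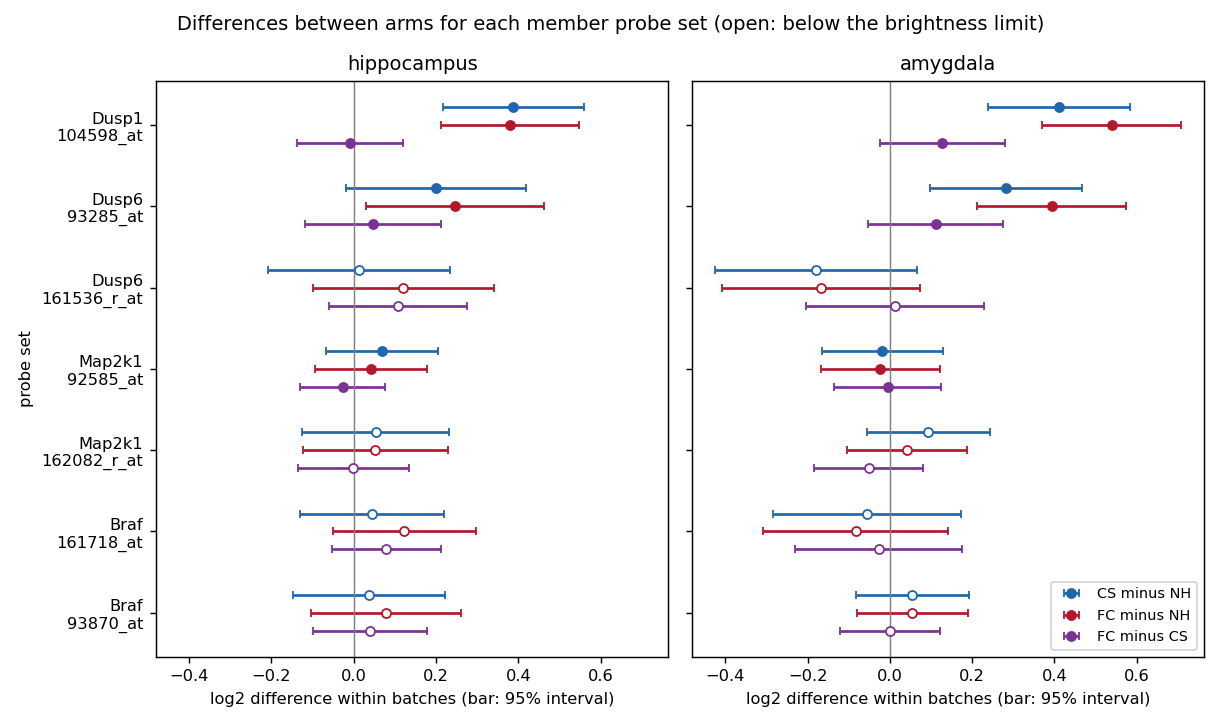
Log2 differences of every member probe set for FC minus NH, CS minus NH and FC minus CS in each tissue, with batch as a block, bars for 95% confidence intervals and open symbols for probe sets below the brightness limit. Dusp1 and the bright Dusp6 probe set lie right of 0 in FC minus NH and CS minus NH in both tissues. For CS in hippocampus the interval of that Dusp6 probe set includes 0. The dim Dusp6 probe set lies left of 0 for FC minus NH and CS minus NH in amygdala, with intervals that include 0. Map2k1 and Braf stay near 0.

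The differences between arms were set against each other between the tissues in a joint fit of the 48 arrays. For Dusp1, the FC minus NH difference was larger in amygdala than in hippocampus by 0.16 ± 0.118, with an interval from -0.08 to 0.40 and an adjusted p of 0.981 (limma, 7242 probe sets). For CS minus NH it differed by 0.02 ± 0.120, with an interval from -0.22 to 0.27. For Dusp6 these values were 0.15 ± 0.142 and 0.08 ± 0.144, and for Map2k1 -0.07 and -0.09. None of these differences passed the test, which does not show that the tissues respond alike. The fit took the arrays of the tissues as independent, although array names may tie some amygdala arrays to hippocampus arrays of the same arm, and the effect of such a tie was not tested. The share of probe sets called in these tests was 0% in each, with 248, 183 and 99 at an unadjusted p under 0.05 for FC minus NH, CS minus NH and FC minus CS (limma).

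The genes most like Dusp1 and Dusp6 across arrays were named by their correlation. Likeness was measured as Pearson's r of log2 values centred on their batch mean, over 26 hippocampus and 22 amygdala arrays, averaged over the tissues and ranked over 6506 probe sets. The closest to Dusp1 was Fos, a subunit of the AP-1 factor, at 0.91 (0.89 in hippocampus and 0.93 in amygdala). It was followed by Junb at 0.79, Egr1 at 0.76, Nr4a1 at 0.75, Dusp6 at 0.74 and Klf10 at 0.69, against a median of 0.083 over all probe sets ranked. Map2k1 stood at 0.28, rank 1287. The closest to Dusp6 were Fos at 0.77, Dusp1 at 0.74, Ppp3r1, the regulatory subunit of calcineurin, at 0.73, Egr1 at 0.73 and the ubiquitin pathway genes Usp34 and Rnf13, each at 0.71.

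In the values centred on batch means, 5 amygdala NH arrays lie apart at the low end, 4 of them in batches shared with FC and CS arrays. Batch 1 holds NH arrays alone, so centring takes out any distance of its arrays from the other arms. Before centring, the NH log2 intensities of Dusp1 ran from 6.55 to 7.01, below every FC and CS array. Because 5 arrays lie apart after centring, the effects of batch and arm were also taken out in an additive fit. An arm difference that varies between batches stays in the values of that fit. After that fit, Dusp1 and Fos still correlated at 0.75 in hippocampus and 0.76 in amygdala. Dusp1 and Dusp6 were at 0.47 and 0.74, and Dusp6 and Fos at 0.64 and 0.76. Without the 2 arrays farthest from the median of Dusp1, the values for Dusp1 and Fos were 0.73 in hippocampus and 0.58 in amygdala, and those for Dusp1 and Dusp6 0.37 and 0.70. Fos kept rank 1 for Dusp1 and Dusp6 held rank 7, while Klf10 stood at rank 12, Egr1 at rank 47, Junb at rank 192, Map2k1 at rank 643 (0.40) and Nr4a1 at rank 962. For Dusp6, Fos then stood at rank 6, Ppp3r1 at 8, Usp34 at 13, Dusp1 at 54, Egr1 at 58, Rnf13 at 87 and Map2k1 at 1209 (0.34). The order of likeness thus changed once the arms were taken out. All genes of an array share its RNA and hybridisation, and these correlations are descriptions of these arrays.

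**Figure D3:**
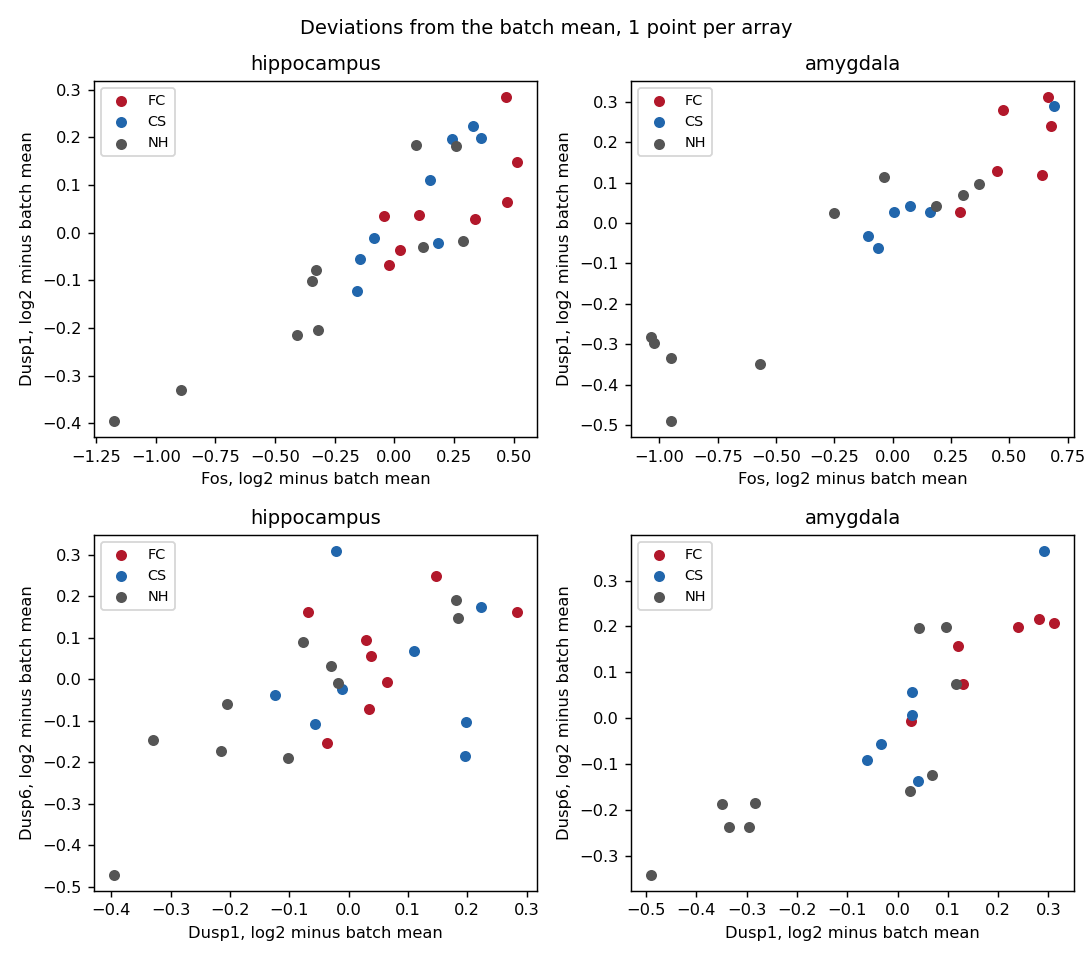
Log2 intensity of Dusp1 against that of Fos (upper panels) and of Dusp6 against that of Dusp1 (lower panels), each centred on its batch mean, with 1 point per array, coloured by arm, in hippocampus and amygdala. Dusp1 follows Fos with r of 0.89 in hippocampus and 0.93 in amygdala, where 5 NH arrays lie apart at the low end of Dusp1 after centring. Batch 1 of amygdala holds NH arrays alone, so centring takes out any distance of its arrays from FC and CS.

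The remaining genes of the pathway were described from lists. Of 17 other MAP kinase phosphatases and related MAP kinase-directed enzymes, 8 had a probe set, and 0 of 6 tested probe sets in hippocampus and 0 of 5 in amygdala were called in any comparison (limma). None had an unadjusted p under 0.05. Over all tested probe sets, 0% to 0.0939% were called per comparison, and 0.765% to 5.15% had an unadjusted p under 0.05 (limma). The lack of calls in this list and in the kinase, activator and inhibitor lists below is near that called share. The median FC minus NH difference of these phosphatases was -0.04 in hippocampus and 0.03 in amygdala, beside -0.0005 and 0.0104 over all tested probe sets. Dusp8, a JNK- and p38-directed phosphatase, gave -0.14 on 161171_at and -0.10 on 92362_at for FC minus NH in hippocampus. Dusp19, of the same enzyme family, was at 0.08 and Dusp2, an inducible nuclear phosphatase, at 0.02 in the same comparison. Of the tested probe sets of Dusp1, Dusp6 and Map2k1, the median FC minus NH difference was 0.25 in hippocampus and 0.39 in amygdala. These medians are the values of the Dusp6 probe set 93285_at, which did not pass. The members were chosen with earlier results known, so the medians give no test between the lists.

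Among RAS to ERK kinases and scaffolds, 14 probe sets were tested in each tissue and 0 were called, with 1 at an unadjusted p under 0.05 over the 6 comparisons. Their median FC minus NH difference was 0.04 in amygdala and -0.01 in hippocampus. The scaffold Ksr1 gave 0.11 on 92764_at and -0.07 on 92765_s_at in amygdala, the RAF kinase Araf -0.09, and Lamtor3, which tethers MEK1 and ERK1 to late endosomes, 0.11. RAS activators had 0 called of 11 probe sets in amygdala and 0 of 10 in hippocampus. In hippocampus 1 had an unadjusted p under 0.05 in CS minus NH and 1 in FC minus CS (limma). The exchange factor Rasgrp1 was at 0.36 ± 0.199 for FC minus NH in hippocampus and 0.03 in amygdala, the adaptor Grb2 at 0.03 and 0.12, and the docking protein Gab1 at 0.02 and 0.08.

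Of the inhibitors of RAS and ERK signalling, 0 of 8 tested probe sets were called in each tissue. In hippocampus 1 had an unadjusted p under 0.05 in CS minus NH and 1 in FC minus NH (limma). Erf, a repressor that ERK drives out of the nucleus, had the smallest p of that list: 93670_at was at 0.28 ± 0.0832 for CS minus NH in hippocampus, with an interval from 0.11 to 0.45 and an adjusted p of 0.9999 (limma), while its other probe set, 93671_at, was at 0.00. Spry4, a feedback inhibitor of receptor tyrosine kinase signalling, gave 0.14 for FC minus NH in hippocampus and -0.07 in amygdala, and the adaptor Dok1 -0.01 and -0.02.

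Kinases and factors downstream of ERK had 0 called of 9 probe sets in hippocampus and 0 of 8 in amygdala. At an unadjusted p under 0.05 were 1 in FC minus NH in hippocampus and, in amygdala, 1 in FC minus NH and 1 in FC minus CS (limma). Mknk2, which phosphorylates the translation factor eIF4E, was at 0.22 ± 0.0607 for FC minus NH in amygdala on 101007_at (adjusted p = 0.560, limma) and at 0.04 on 92473_at. Elk1, an ERK-activated partner of SRF, was at 0.22 ± 0.103 in hippocampus and 0.06 in amygdala, and Mapkapk2, a kinase best known as a p38 target, at 0.04 and 0.01. Of the JNK, p38 and ERK5 cascades, 0 of 20 probe sets in hippocampus and 0 of 21 in amygdala were called. At an unadjusted p under 0.05 in amygdala were 2 in CS minus NH and 1 in FC minus NH (limma). In FC minus NH the neuronal JNK gene Mapk10 was at 0.13 on 100470_at in amygdala, Mapk6, which encodes ERK3, at -0.16 in hippocampus, and Map3k8, a kinase that can activate MEK, at -0.11 in amygdala.

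Calls also occurred among the activity genes, whose transcripts are known to rise within minutes of neuronal firing. In FC minus NH, 6 of 21 probe sets were called higher in amygdala and 1 of 22, Fos, in hippocampus, with medians of 0.21 and 0.10. Over all tested probe sets, 0.0939% and 0.0134% were called in the same order. In CS minus NH, 1 was called in each tissue, beside 0.0134% of all tested probe sets in each. The list was chosen with earlier results of these data known, so the calls in it give no test of the list. Fos differed by 1.53 ± 0.146 in FC amygdala and by 1.09 ± 0.147 in FC hippocampus. In amygdala Junb was at 0.53 on 102362_i_at, Nr4a1 at 0.44, Egr2 at 0.43, Egr1 at 0.41 and Gadd45g at 0.30, beside 0.54 for Dusp1. All of these values rest on the same arrays.

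**Figure D4:**
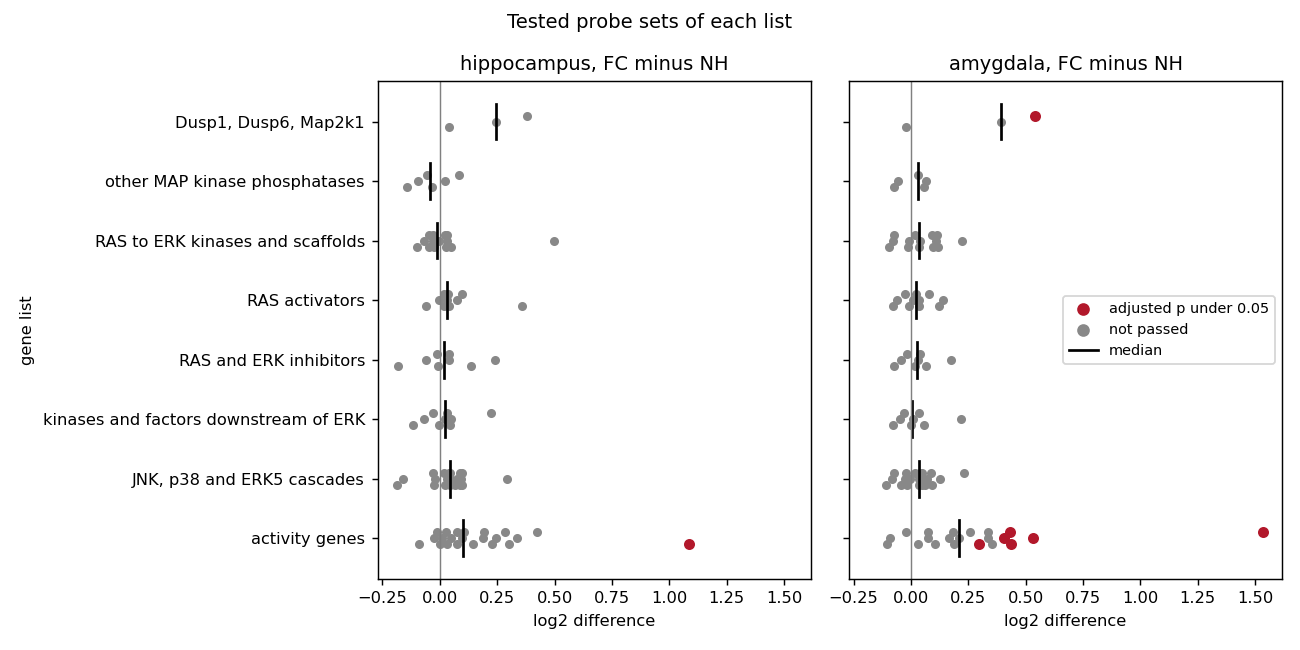
Log2 differences for FC minus NH of every tested probe set of each pathway list in hippocampus and amygdala, with 1 point per probe set, called probe sets marked, and a bar at the median of the list. Calls lie in the activity genes and in Dusp1, and the lists of kinases, activators, inhibitors and other phosphatases hold none. Over all tested probe sets 0.0939% were called in amygdala and 0.0134% in hippocampus. The lists were chosen with earlier results of these data known.

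Markers of other cells were read beside the Dusp1 result. No marker probe set was called in any of the 6 comparisons (limma). At an unadjusted p under 0.05 in FC minus NH in amygdala were 3 of 9 microglia, 3 of 10 oligodendrocyte and 1 of 11 astrocyte probe sets and 0 of the other lists, beside 5.15% of all tested probe sets. In FC minus NH in amygdala, 2 of 10 endothelial probe sets were above 0 with a median of -0.04, 1 of 5 blood probe sets with a median of -0.08, 7 of 9 microglia probe sets with 0.09, 7 of 11 astrocyte probe sets with 0.01, 7 of 10 oligodendrocyte probe sets with 0.13, 0 of 3 choroid plexus probe sets with -0.09 and 8 of 11 neuron probe sets with 0.03. Linear intensities were also summed over the probe sets of a list and the log2 taken. These sums have no batch term, and bright probe sets weigh most in them. The log2 sum of oligodendrocyte markers ranged from 11.30 to 11.49 in FC and from 11.14 to 11.42 in NH. That of microglia markers ranged from 10.42 to 10.57 in FC and from 10.31 to 10.49 in NH. Neuron markers ranged from 12.52 to 12.81 in FC and from 12.52 to 12.79 in NH. For endothelial markers the ranges were 9.86 to 10.00 in FC and 9.82 to 9.99 in NH, for blood markers 9.99 to 10.52 and 9.61 to 10.39, for astrocyte markers 11.56 to 11.82 and 11.56 to 11.66, and for choroid plexus markers 7.60 to 7.98 and 7.62 to 7.97, in the same order. All of these ranges overlap between FC and NH. The part of these cells in the Dusp1 difference was not tested.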

How the data were processed

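Transcripts were measured on 48 one-colour arrays. For each probe set and array the authors deposited a linear intensity made with RMA, per the submitters' processing notes; its version is not stated there. RMA generally equalises array distributions, which hides changes common to most transcripts. Array medians were 76.5 to 80.8 in hippocampus and 52.3 to 56.1 in amygdala, so the tissues appear separately normalized and their levels were not compared. The number of arrays limits the precision. No pair of arrays was identical (r from 0.982 to 0.999).

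The log2 of the intensity was taken with nothing added. Of 12422 probe sets, 10833 name 1 gene, 396 several and 1193 none in the platform annotation. Each tissue was fitted with limma 3.58.1 in R 4.3.3 (lmFit, eBayes; 3 arms, batch as fixed block) on 7453 probe sets, two-sided, Benjamini-Hochberg, threshold 0.05, after a check on simulated data. The labelled batches of hippocampus were batch 4 (2 FC, 3 CS, 2 NH), batch 5 (4 FC, 4 CS), batch 6 (2 FC, 1 CS, 2 NH) and batch 7 (6 NH), and those of amygdala batch 2 (4 FC, 3 CS, 3 NH), batch 3 (2 FC, 3 CS, 1 NH) and batch 1 (6 NH). Members and lists were chosen with earlier results of these data known. List genes were named where called or among the 3 smallest p-values of the list, and likeness gave 6 genes per phosphatase. Alternatives covered the batch term, array weights, the brightness filter, an added intensity of 16, quantile normalization, averaged probe sets, single batches and each array left out.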

Additional observations from a re-analysis of the deposited data

Results flagged for a closer look

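Of 42 groups of member values, 4 held an array far from the others, and chance flags about 1 in 20 groups. In amygdala CS, Dusp1 was highest in replicate 23139, at a log2 intensity of 7.46, with the next array at 7.25. The same array was the highest of CS for Dusp6, at 7.26, and for Map2k1, at 8.68. Without it, CS minus NH in amygdala was 0.35 for Dusp1 and 0.20 for Dusp6, and FC minus NH was 0.54 for Dusp1 with an adjusted p of 5.85e-04 (limma). In hippocampus FC, Dusp1 was lowest in replicate 113, at 7.56, with the next array at 7.82. Without it the FC minus NH difference was 0.40 (adjusted p = 0.249, limma). Replicate 113 also held the highest value of the dim Map2k1 probe set 162082_r_at in that arm, 3.62 against 3.35 in the nearest array. In amygdala CS, the dim Braf probe set 161718_at was lowest in replicate 251101, at 4.49, with the nearest array at 4.65.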

How the results depend on the processing

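Dusp1 kept its direction and its call for FC minus NH in amygdala in 11 of 13 alternatives, with differences from 0.48 to 0.59, and in all 22 fits that left out an array (0.49 to 0.58, adjusted p from 7.59e-05 to 0.0204, limma). The exceptions were batch 2 alone and batch 3 alone, where fewer arrays remained and 0 member probe sets were called. Called member probe sets numbered 2 in this comparison with no batch term, with batch as a random block and with array weights, because Dusp6 passed too, and 1 to 2 with an array left out. In amygdala CS minus NH, 1 was called under each of those 3 settings and 0 to 1 with an array left out. In hippocampus FC minus NH, 1 was called under each of the 3, and in CS minus NH 1 with no batch term. Over all probe sets, FC minus NH in amygdala had 211 calls (2.83%) with no batch term, 10 with the random block and 911 (12.2%) with array weights, against 7 with the fixed block. Under the same 3 settings, in that order, all-probe-set calls were 17, 4 and 5 in amygdala CS minus NH, 7, 4 and 3 in hippocampus FC minus NH and 7, 1 and 1 in hippocampus CS minus NH, against 1 each with the fixed block. In these comparisons the called member was Dusp1. The cause was not tested.

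Among tested members, directions turned for differences near 0 and for Dusp6 in batch 6. With no batch term Map2k1 in hippocampus was at -0.021 for CS minus NH, -0.020 for FC minus NH and 0.00107 for FC minus CS, and at 0.031 for FC minus CS in amygdala. Map2k1 FC minus CS was also at 0.019 in batch 6 alone in hippocampus, and in amygdala at 0.0061 with the random block, 0.071 with array weights and 0.10 in batch 3 alone. In amygdala its CS minus NH was 0.062 in batch 2 alone and 0.037 with probe sets averaged, and its FC minus NH 0.0089 with probe sets averaged. Dusp1 FC minus CS in hippocampus was 0.039 with no batch term, 0.011 with the random block, 0.037 with array weights and 0.060 in batch 4 alone. Dusp6 in hippocampus was at -0.16 for CS minus NH in batch 6 alone, which holds 1 CS array, and at -0.00293 for FC minus CS in batch 5 alone. With an array left out, FC minus CS in hippocampus ranged from -0.043 to 0.026 for Dusp1, from -0.012 to 0.085 for Dusp6 and from -0.052 to 0.00479 for Map2k1. For Map2k1 in amygdala the ranges were -0.098 to 0.018 for CS minus NH, -0.052 to 0.0084 for FC minus NH and -0.028 to 0.070 for FC minus CS. Averaged Dusp6 probe sets in hippocampus fell below the brightness limit and gave no value. An alternative chosen after seeing the data, without the batches that hold NH arrays alone, changed no call of a member. Over all probe sets in amygdala it gave 6 calls in FC minus NH, against 7, and 2 in CS minus NH, against 1. No paired analysis was possible because the arms of a tissue share no replicate number. The low signal over background of its probe sets limits what can be said of Braf.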
